A study of Homo sapiens with 8 samples.

Results

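HCT116 cells, an established human colorectal carcinoma line, were compared between 2 libraries from cells rescued with DICER carrying the substitution R821H and 2 libraries from cells rescued with wild-type (WT) DICER. The members are all mature microRNA (miRNA) names with a read in any of these 4 libraries, 1725 of the 1818 names in the series, whose 8 libraries also cover the R1855L and R1003Q rescues. All 4 groups were described only as HCT116 cells with a named DICER rescue, with no treatment or time given. The sources used here do not give whether the host cells lacked their own DICER, how the rescue was driven or whether each line is 1 clone. Each library came from 100 µg of total RNA by AQ-seq, a small-RNA sequencing method made to reduce ligation bias. No label states that replicates were grown as separate cultures, so a p-value here reflects only how far these libraries vary, and that may be technical. Counts of mature miRNAs do not read the DICER transcript, so they do not check the substitution itself. In bulk RNA, fewer cells that make a miRNA and less of it per cell cannot be told apart.

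DICER is the ribonuclease that cuts the loop from a precursor hairpin and leaves a short duplex. The strand from the 5-prime arm is named 5p and the strand from the 3-prime arm 3p. Argonaute keeps mostly the guide strand of a duplex, and the passenger strand is usually degraded. Bases 2 to 8 of the mature miRNA, the seed, pair with target messenger RNAs. The let-7 family is a set of growth-restraining miRNAs whose 5p guides share a seed and repress targets such as RAS, MYC and HMGA2.

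The lower names fell mainly into the let-7 family, miR-185 and miR-374b, and their sequences are shown for that reason. All are RefSeq sequences matched to GRCh38.p14, written 5-prime to 3-prime, and in the mature strands capitals mark the seed. The let-7 guides that were lower once sequencing depth was in the model are shown with let-7g-5p, which was not called, to show that they share a seed.
miR-98-5p: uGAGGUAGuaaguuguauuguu
let-7d-5p: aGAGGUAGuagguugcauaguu
let-7g-5p: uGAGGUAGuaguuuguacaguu
The passenger strands that were lower had 2 seeds among them, since miR-98-3p and let-7f-1-3p share theirs.
miR-98-3p: cUAUACAAcuuacuacuuuccc
let-7f-1-3p: cUAUACAAucuauugccuuccc
let-7i-3p: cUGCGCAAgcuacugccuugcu
Levels in CPM are reads per 1e+06 of library total after TMM scaling. The other lower names with a level above 400 CPM in both WT libraries each had a seed of their own.
miR-185-5p: uGGAGAGAaaggcaguuccuga
miR-374b-5p: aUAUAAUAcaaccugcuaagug
miR-590-3p: uAAUUUUAuguauaagcuagu
The most abundant name that was higher was the following.
miR-181a-5p: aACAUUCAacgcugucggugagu

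Precursors are shown for the hairpins with both strands called, MIR98 and MIR374B. MIR185 is shown because a second tool, DESeq2, called its guide without depth in the model. With depth in the model, DESeq2 did not call miR-98-3p or miR-374b-3p. Capitals here mark the 5p and 3p strands.
MIR98: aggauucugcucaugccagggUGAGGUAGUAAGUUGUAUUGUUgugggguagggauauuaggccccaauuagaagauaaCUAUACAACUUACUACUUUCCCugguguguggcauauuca
MIR374B: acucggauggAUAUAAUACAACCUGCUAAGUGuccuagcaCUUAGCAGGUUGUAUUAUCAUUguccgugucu
MIR185: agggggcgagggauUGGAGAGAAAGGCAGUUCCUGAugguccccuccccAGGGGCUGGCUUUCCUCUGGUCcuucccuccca
MIR98 lies at chrX:53556223-53556341 on the minus strand, in an intron of the ubiquitin ligase gene HUWE1. MIR374B lies at chrX:74218547-74218618 on the minus strand, in an intron of the long non-coding RNA gene FTX. MIR185 lies at chr22:20033139-20033220 on the plus strand, in an intron of TANGO2. Gene overlaps were read from GENCODE release 29 on GRCh38.

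The WT libraries held 1137858 reads in replicate 1 and 4269231 in replicate 2, and the R821H libraries held 3340304 in replicate 1 and 841857 in replicate 2. Each group therefore had a deep and a shallow library, in opposite replicate order, and 3 reads corresponded to 0.703 to 3.56 CPM of the unscaled totals. Over all 8 libraries, 3 were deep and 5 shallow, and 228 of 625 tested names (36.5%) differed between these classes in edgeR's quasi-likelihood test at an adjusted p under 0.05, 111 of them higher in the deep libraries (17.8%) and 117 lower (18.7%). The median absolute log2 difference in level was 0.195 between the deep R821H and WT libraries and 0.377 between the shallow pair. It was 0.461 between the WT replicates and 0.447 between the R821H replicates, so libraries of like depth were closer than libraries of 1 rescue. Depth class also went with GC content. Over 542 tested names with a RefSeq sequence, the Spearman correlation of GC with the log2 difference of deep over shallow libraries was -0.657, a description over names that share their libraries. What else differed between deep and shallow libraries was not tested. R821H was therefore compared with WT both without and with a term for depth class in the model, and log2 ratios inside each class are given for several members.

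With group alone in the model, edgeR called 0 of 625 tested names (0%) in R821H against WT at an adjusted p under 0.05. An unadjusted p under 0.05 was reached by 20 names (3.2%), of which 6 were higher in R821H (0.96%) and 14 lower (2.24%). DESeq2 called 1 name (0.16%), miR-185-5p, with a log2 fold change of -1.03, an SE of 0.23 and an adjusted p of 0.00634. The median log2 fold change over all tested names was 0.04, with quartiles of -0.21 and 0.29, and 26 names (4.16%) had an estimated change of more than 2-fold in either direction. Scaling by library totals in place of TMM factors moved that median to -0.08, so fold changes read about 0.1 lower on that scale.

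None of the abundant miRNAs of HCT116 was called, and their estimated differences were small. miR-21-5p, an oncogenic miRNA raised in many carcinomas, took 28.8% and 37.9% of the reads of the WT libraries and 40.8% and 32.5% of those of R821H. The share was lower in the shallow library of each rescue, and the groups overlapped. miR-222-3p, which targets the cell cycle inhibitor CDKN1B, was at 81883 and 76740.0 CPM in WT and 87693 and 112980.0 CPM in R821H. Both R821H libraries were above both WT libraries, with a log2 fold change of 0.34 and an SE of 0.25 that did not pass the test (edgeR, adjusted p = 0.994). miR-31-5p, an epithelial miRNA common in colorectal tumours, was at 45871 and 45941 CPM in WT and 42928 and 40857 CPM in R821H, a log2 difference of -0.13 (SE 0.26). Across the 10 most abundant names in WT, the log2 fold changes ran from -0.33 for miR-27a-3p to 0.41 for miR-100-5p, and none passed edgeR's test with or without the depth term.

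With the depth term in the model, edgeR called 16 of 625 names (2.56%) in R821H against WT, 5 higher (0.8%) and 11 lower (1.76%). The median SE of a log2 fold change was 0.41 with group alone and 0.25 with the term. Scaling by library totals kept the term's calls at 15, with 1 higher and 14 lower, and 11 of the 16 names were among them. A fit to the 4 compared libraries alone, with the same term, called 0 names (75 had an unadjusted p under 0.05, and DESeq2 called 10 with the term on all 8 libraries), so the calls rest on a spread estimated with the other rescues. When each of the 4 compared libraries was left out in turn, miR-98-5p, let-7i-3p and miR-185-5p were called in all 4 fits. let-7f-1-3p was lost without R821H replicate 1 and miR-374b-5p without WT replicate 1, and each was called in the other 3 fits. Of the remaining calls, 10 were each lost in at least 2 of these 4 fits.

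**Figure D1:**
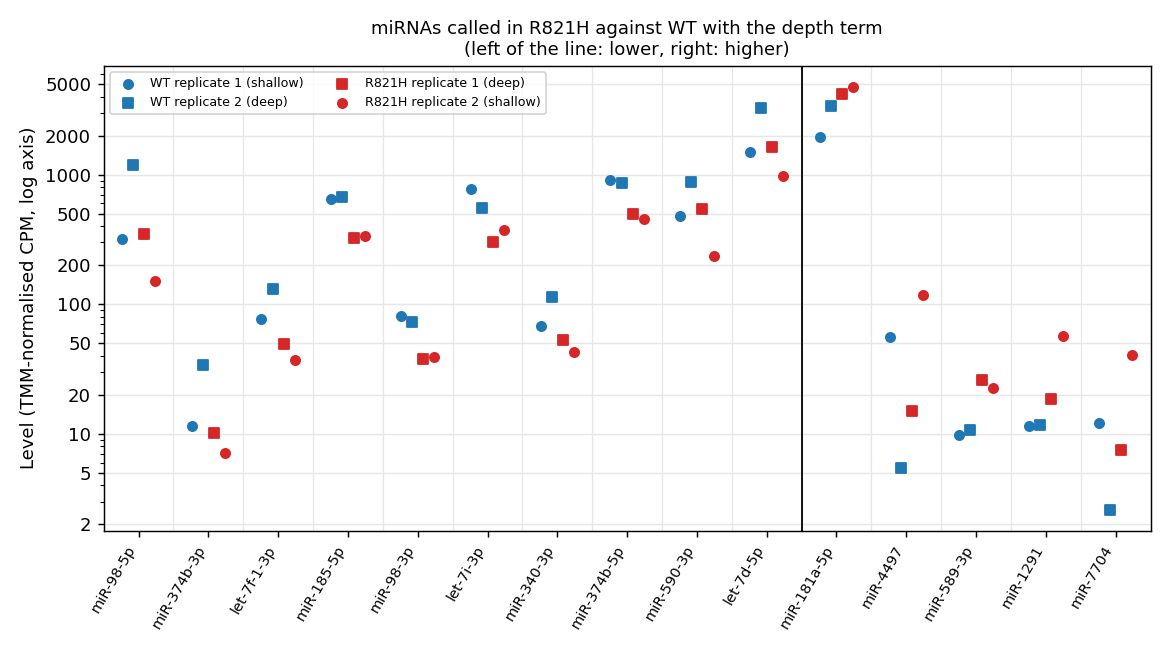
TMM-normalised levels (CPM, log axis) of 15 of the 16 names called in R821H against WT with the depth term, 1 point per library, blue for WT, red for R821H, squares for deep and circles for shallow libraries. Left of the line, 7 of 10 lower names have both red points below both blue points, and right of it 3 of 5 higher names have both red points above both blue ones.

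miR-98-5p, the let-7 guide from the HUWE1 intron, was the call with the smallest adjusted p. Its level was 319.8 and 1192 CPM in WT and 348.2 and 151.3 CPM in R821H, for replicates 1 and 2. The deep WT library was far above the other 3, the shallow R821H library was the lowest, and the groups overlapped. Inside the classes the log2 ratio of R821H over WT was -1.77 in the deep and -1.07 in the shallow libraries. With the depth term it fell by 1.46 on the log2 scale (SE 0.22, edgeR adjusted p = 0.000143), and with group alone the value was -1.59 with an SE of 0.77 (adjusted p = 0.994).

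Its passenger strand, miR-98-3p, was at 81.3 and 72.8 CPM in WT and 37.9 and 39.3 CPM in R821H. Here both R821H libraries were below both WT libraries, and libraries of 1 rescue lay close together. The log2 fold change with the term was -0.98 (SE 0.24, edgeR adjusted p = 0.0221), and this call was lost in each of the 4 fits that left out a compared library. The log2 ratio of 5p over 3p reads for miR-98 was 1.97 and 4.03 in WT and 3.20 and 1.93 in R821H, overlapping between the groups, with a difference of -0.44 (SE 0.42 with the term, limma adjusted p = 0.717).

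Of the 9 let-7 guides, all tested, 2 fell with the depth term, against 1.76% of all tested names, and 7 had a log2 fold change below 0, against 44.6% of all tested names (43.8% with the term, where 7 guides were again below 0). let-7d-5p was the other call, at 1503 and 3271 CPM in WT and 1627 and 981.4 CPM in R821H. Its groups overlapped by the deep R821H library, which lay just above the shallow WT library. It fell by 0.81 (SE 0.18, edgeR adjusted p = 0.00841), with log2 ratios of -1.01 in the deep and -0.61 in the shallow libraries, and the call was lost without either WT library.

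let-7i-5p, which missed the threshold with the term at a log2 fold change of -0.65 (SE 0.19, edgeR adjusted p = 0.057), was at 4126 and 11598 CPM in WT and 5548 and 3386 CPM in R821H. let-7g-5p was at 1553 and 4858 CPM in WT and 4456 and 2012 CPM in R821H, a log2 fold change with the term of 0.13 (SE 0.18). let-7c-5p, the least abundant guide, had 0.17 (SE 0.23), so members of 1 seed family had values on both sides of 0. The median log2 fold change of the guides was -0.81 with group alone and -0.59 with the term, beside 0.04 and 0.05 for all tested names. No guide separated the rescues in all 4 libraries, and without WT replicate 2 the median was 0.05. The median log2 difference of the guides between deep and shallow libraries was 1.43. let-7c-5p went the other way, at 160.3 and 79.3 CPM in WT and 93.8 and 172.7 CPM in R821H, with the shallow library the higher in each rescue.

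The summed level of the guides was 16707 and 45805 CPM in WT and 27040 and 15147 CPM in R821H. The deep libraries were high in both rescues, and each R821H library was below the WT library of its depth class. The difference came mainly from the deep pair. The median log2 ratio of the guides was -1.01 there and -0.11 in the shallow pair, where let-7b-5p, let-7c-5p and let-7g-5p were above 0. Guides from precursors of group II, whose short 3-prime overhang calls for addition of a uridine before DICER cuts, held both calls, with a median of -0.82 over 6 names. The 2 group I guides tested, let-7e-5p at -0.81 and let-7c-5p at 0.15, had a median of -0.33. With the term the medians were -0.62 for group II and -0.21 for group I. Without WT replicate 2 the group II median with group alone was 0.02. The difference between these groups was not tested.

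The let-7 passenger strands gave lower levels in more even libraries. Of 11 listed, 10 were tested, 9 had a log2 fold change below 0 (44.6% of all tested names), and 3 fell with the depth term (1.76% of all tested names). Their summed level was 2529 and 2118 CPM in WT and 1446 and 1676 CPM in R821H, with no overlap between the rescues. In 7 of the 10, both R821H libraries were below both WT libraries, where 13.1% of all tested names did the same. The median log2 fold change was -0.52 with group alone and -0.50 with the term, and it ran from -0.67 to -0.38 over the alternatives tried.

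let-7i-3p, the most abundant of them in WT, was at 776.2 and 556.4 CPM in WT and 300.8 and 372.8 CPM in R821H. Both R821H libraries were lower, and the depth classes agreed in direction, with log2 ratios of -0.88 and -1.06. It fell by 0.96 with the term (SE 0.19, edgeR adjusted p = 0.00335). let-7f-1-3p was at 76.7 and 131.6 CPM in WT and 49.5 and 36.9 CPM in R821H, again with no overlap, and fell by 1.28 (SE 0.26, edgeR adjusted p = 0.00346). let-7a-3p, at 538.9 and 554.4 CPM in WT and 388.0 and 372.8 CPM in R821H, separated the rescues with a log2 fold change of -0.52 (SE 0.19) but was not called (edgeR, adjusted p = 0.159). let-7a-2-3p had 39.5 CPM in each WT library and 40.9 and 38.1 CPM in R821H, a log2 fold change of 0.02. The sister strands let-7f-1-3p and let-7f-2-3p, whose guides are the same mature name, had log2 fold changes of -1.28 and -0.11 (SE 0.20) with the term, and the difference between them was not tested.

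**Figure D2:**
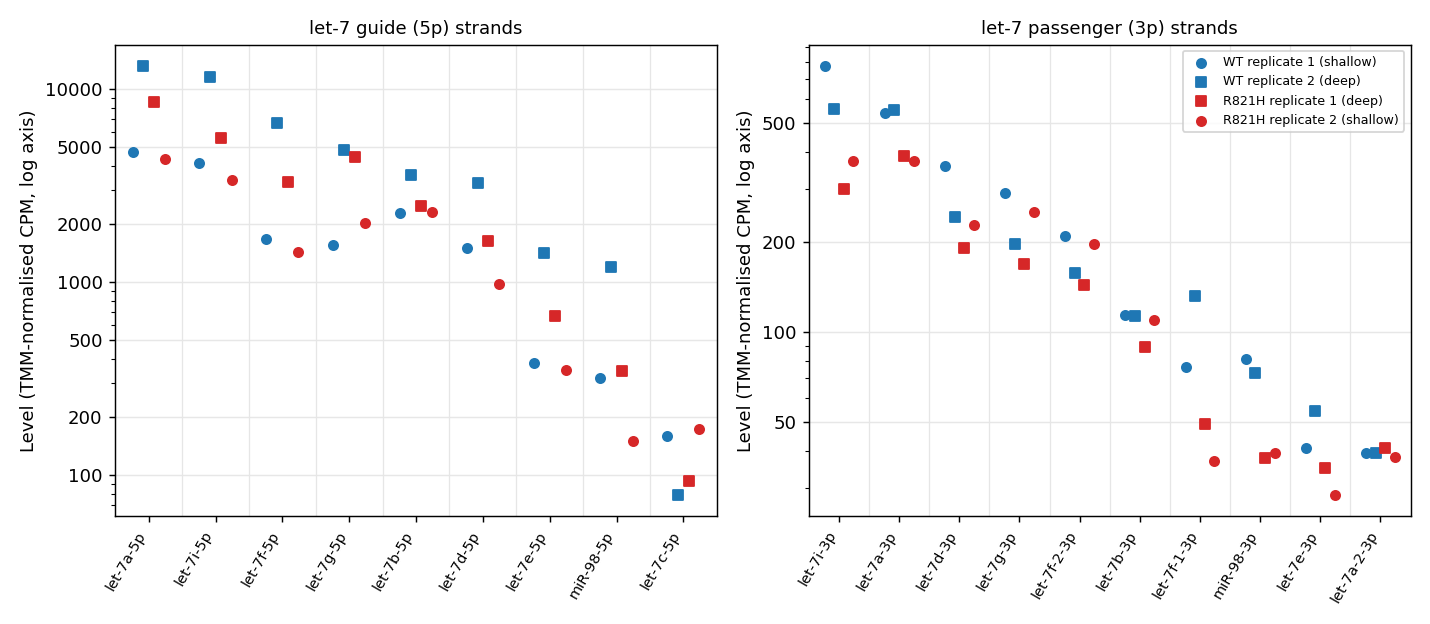
TMM-normalised levels (CPM, log axis) of the 9 let-7 guide strands (left) and the 10 tested passenger strands (right) in the 4 libraries, coloured by rescue and shaped by depth class. Among the guides other than let-7c-5p the deep library (square) is the higher in each rescue, and the groups overlap for all 9, while 7 of 10 passenger strands have both R821H points below both WT points.

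miR-185-5p, a miRNA known to target the small GTPase RHOA, was the call that depended least on the model. Its level was 647.9 and 669.5 CPM in WT and 325.7 and 334.7 CPM in R821H. The 2 libraries of each rescue were nearly equal despite their difference in depth, and the groups were far apart. The log2 fold change was -1.0 with an SE of 0.19 both with group alone (edgeR adjusted p = 0.346) and with the term (adjusted p = 0.00246), and the class ratios were -1.04 and -0.95. Its passenger miR-185-3p, at 50.9 and 40.1 CPM in WT and 25.6 and 36.9 CPM in R821H, was also lower in both libraries but was not called (log2 fold change with the term -0.57, SE 0.26, edgeR adjusted p = 0.298). The log2 ratio of 5p over 3p reads for miR-185 overlapped between the rescues, with a difference of -0.45 (SE 0.39).

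Both strands of miR-374b, made from an intron of FTX at the X-inactivation centre, were called lower with the term. miR-374b-5p was at 915.2 and 858.1 CPM in WT and 495.9 and 458.6 CPM in R821H, with no overlap and little spread within a rescue. It fell by 0.89 (SE 0.18, edgeR adjusted p = 0.00459). miR-374b-3p was at 11.4 and 33.8 CPM in WT and 10.2 and 7.15 CPM in R821H, where the shallow WT library was close to the deep R821H one, and fell by 1.46 (SE 0.38, edgeR adjusted p = 0.0296). This call was lost without WT replicate 2 or R821H replicate 1, and the log2 fold change with the term ran from -1.77 to -0.61 over the alternatives. The most abundant name of the same list, miR-374a-5p, was at 6079 and 6467 CPM in WT and 6243 and 5650 CPM in R821H, a log2 fold change of -0.08 (SE 0.23). Over the 6 tested names of the miR-374, miR-421 and miR-545 list, the median was -0.17, it turned to 0.06 without WT replicate 2, and miR-374b-5p was the 1 call with the term.

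A further 2 lower calls with the term were 3p strands whose 5p partner was not called. miR-340-3p, from an intron of RNF130, was at 67.6 and 113.7 CPM in WT and 52.9 and 42.9 CPM in R821H, with no overlap, and fell by 0.93 (SE 0.25, edgeR adjusted p = 0.0383). miR-340-5p had a log2 fold change of -0.01 (SE 0.21). miR-590-3p, from an intron of EIF4H, was at 477.7 and 882.8 CPM in WT and 543.7 and 234.6 CPM in R821H, overlapping by the deep R821H library, and fell by 0.84 (SE 0.22, edgeR adjusted p = 0.0351). miR-590-5p had 0.09 (SE 0.17). DESeq2 with the term called neither of the 3p strands. The miR-590-3p call was also lost under library totals, with thinned counts and with only names of at least 50 CPM. Over the alternatives, the log2 fold change with the term ran from -1.38 to -0.72 for miR-340-3p and from -1.23 to -0.62 for miR-590-3p. The log2 strand ratio was higher in both R821H libraries, by 0.90 (SE 0.42) for miR-340 and 0.95 (SE 0.32) for miR-590, and neither difference passed limma's test with the term (adjusted p = 0.378 and 0.119).

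Among the names of at least 50 CPM whose libraries separated the rescues, the next lowest log2 fold changes were of names that were not called. Both strands of miR-33b, which lies in an intron of the lipid regulator gene SREBF1 and represses cholesterol export genes, were among them. miR-33b-3p was at 597.0 and 440.4 CPM in WT and 290.6 and 270.4 CPM in R821H, a log2 fold change with the term of -0.83 (SE 0.23, edgeR adjusted p = 0.0524). miR-33b-5p was at 1113 and 481.2 CPM in WT and 407.6 and 472.9 CPM in R821H, where the deep WT library was just above the shallow R821H library. miR-548d-3p had -0.84 with the term (SE 0.24, edgeR adjusted p = 0.0528), and miR-96-5p, of the sensory and cancer-linked miR-183 cluster, had -0.71 (SE 0.34).

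On the higher side, miR-181a-5p, a regulator of lymphocyte signalling also made by many tumours, was the abundant call. Its level was 1940 and 3402 CPM in WT and 4180 and 4765 CPM in R821H. Both R821H libraries were higher, although the difference came mainly from the shallow pair, with a log2 ratio of 1.30 against 0.30 in the deep pair. It rose by 0.80 with the term (SE 0.19, edgeR adjusted p = 0.0199), and the call was lost without WT replicate 1, without R821H replicate 2 and under scaling by library totals. Its family members miR-181b-5p, miR-181c-5p and miR-181d-5p had log2 fold changes with the term of 0.38, 0.16 and 0.34, none of them called, and the median of the 4 names was 0.36, beside 0.05 for all tested names.

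The other higher calls were scarce. miR-589-3p, from an intron of FBXL18, was at 9.87 and 10.7 CPM in WT and 25.9 and 22.6 CPM in R821H. Neither rescue overlapped the other, and its values were close within each. It rose by 1.25 (SE 0.32, edgeR adjusted p = 0.0259), a call lost without WT replicate 1, WT replicate 2 or R821H replicate 1, and with counts thinned to the smallest library the log2 fold change with the term was 0.21. Its partner miR-589-5p had -0.03 (SE 0.27).

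miR-1291, whose hairpin overlaps the small nucleolar RNA gene SNORA2C, was at 11.4 and 11.7 CPM in WT and 18.4 and 57.2 CPM in R821H, and rose by 1.32 (SE 0.33, edgeR adjusted p = 0.0241). The shallow R821H library was well above the other 3. miR-4497 was at 56.2 and 5.46 CPM in WT and 15.0 and 118 CPM in R821H, and rose by 1.21 (SE 0.28, edgeR adjusted p = 0.0135). miR-7704, in an exon of HOXD1, was at 12.2 and 2.60 CPM in WT and 7.50 and 40.5 CPM in R821H, and rose by 1.64 (SE 0.38, edgeR adjusted p = 0.0135). For miR-4497 and miR-7704 the shallow library was the higher in each rescue, and the groups overlapped. Under scaling by library totals, miR-1291, miR-4497 and miR-589-3p were not called, nor was miR-590-3p among the lower names.

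The 10 highest log2 fold changes among names of at least 50 CPM whose libraries separated the rescues included 6 3p strands. Of all 625 tested names, 243 were 3p strands. The 10 lowest such names also held 3p strands, namely let-7f-1-3p, miR-98-3p, let-7i-3p, miR-340-3p, miR-33b-3p and miR-548d-3p. The count therefore does not set the higher names apart. Both sets of 10 names were picked by their values, and a difference between arms was not tested. miR-361-3p, from an intron of CHM, was at 115.4 and 161.8 CPM in WT and 223.7 and 256.1 CPM in R821H, both R821H libraries being higher. Its log2 fold change with the term was 0.77 (SE 0.22, edgeR adjusted p = 0.0557). miR-30a-3p was at 284.1 and 338.4 CPM in WT and 522.5 and 463.3 CPM in R821H, with 0.66 (SE 0.19, edgeR adjusted p = 0.0524). The others, with values with the term from 0.55 to 0.62 apart from miR-181a-5p, were miR-550a-3p, miR-573, miR-1301-3p, miR-3653-5p, miR-128-1-5p, miR-625-3p and miR-30d-3p, and none was called.

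**Figure D3:**
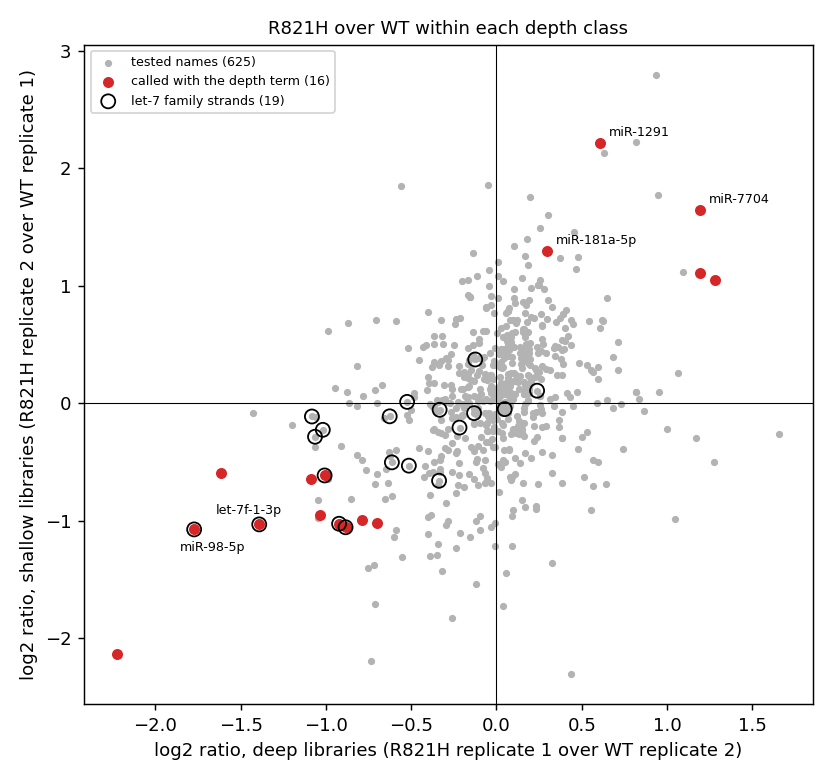
Log2 ratio of R821H over WT in the deep libraries (horizontal axis) against the shallow libraries (vertical axis) for 625 tested names in grey, with the 16 names called with the depth term in red and the 19 tested let-7 strands circled. All 16 called names have ratios of 1 sign in both classes, as do 394 of all tested names (63%), and 31 names lie at or below -0.5 in both.

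The depth classes give 2 readings of the same contrast, though not independent support, since the calls were made from these libraries. The 2 ratios had the same sign in 394 of 625 names (63%). Both were at or below -0.5 in 31 names (4.96%) and at or above 0.5 in 15 (2.4%). In 96 names (15.4%) both R821H libraries were above both WT libraries and in 82 (13.1%) both were below.

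Lists of related miRNAs were read by their counts and medians beside those of all tested names. Those made without the usual Drosha step were examined because they reach DICER by other routes. The capped hairpins, miR-320 and miR-484, are exported as DICER substrates straight from transcription. Of 5 tested names all had a log2 fold change above 0, as did 55.4% of all tested names. The list's median was 0.91 with group alone and 0.67 with the term, beside 0.04 and 0.05 for all tested names, but none was called and none separated the rescues.

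miR-320a, the most abundant of the list in WT, was at 3084 and 5925 CPM in WT and 5784 and 5512 CPM in R821H. Its log2 fold change was 0.33 (SE 0.38). The scarcer miR-320b was at 252.5 and 131.1 CPM in WT and 149.4 and 570.5 CPM in R821H, so the shallow R821H library alone stood above the rest. miR-484, at 1175 and 1039 CPM in WT and 1049 and 1296 CPM in R821H, had a log2 fold change of 0.08 (SE 0.35). Without R821H replicate 2 the list's median turned to -0.20, and the miR-320 members share a seed and may share reads. Mirtrons, whose precursors are cut out by the splicing machinery, had 11 tested names and a median of -0.15. This median turned to 0.16 without WT replicate 1, was also above 0 without R821H replicate 1, and no name was called. miR-877-5p, the most abundant mirtron strand, was at 203.6 and 210.2 CPM in WT and 186.9 and 210.8 CPM in R821H.

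Names that overlap small nucleolar RNAs had 9 of 10 log2 fold changes above 0 with a median of 0.47, beside the same 55.4% of all tested names, and miR-1291 was the 1 call with the term. Names listed as overlapping other non-coding RNAs, such as fragments of transfer or ribosomal RNA, had 10 of 14 above 0, a median of 0.33 and the 1 call miR-7704. By position, the hairpin of miR-7704 overlaps only the protein-coding gene HOXD1 on its strand, and that of miR-1260b overlaps none. The summed level of this list was 19161 and 8519 CPM in WT and 12516 and 14659 CPM in R821H, higher in the shallow library of each rescue. Most of this sum was miR-1260b, at 15264 and 6300 CPM in WT and 9838 and 9462 CPM in R821H. In R821H that name was not higher in the shallow library, so the sum does not describe the list as a whole. The median of this list turned to -0.20 without R821H replicate 2, and was below 0 without WT replicate 2 and with counts thinned to the smallest library. miR-4286, the name with the largest fold change in the list, was at 427.6 and 121.7 CPM in WT and 215.2 and 2007 CPM in R821H. The shallow R821H library was the highest by far, and the log2 ratio of the deep pair was 0.82. It was not called with the term (log2 fold change 1.56, SE 0.35, edgeR adjusted p = 0.058).

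Conserved families of growth control had medians near that of all names. The oncogenic miR-17-92 cluster and its paralogs had a median log2 fold change of 0.06 over 11 tested names, and miR-92a-3p, its most abundant strand, had 0.29 (SE 0.28). The miR-15/16 family, which restrains the cell cycle, had 0.02 over 7 names, and the 3 miR-29 guides, which target collagens, had -0.01. miR-221 and miR-222 had -0.01 over 4 strands, and the miR-30 family had 0.16 over 5. The 3 names of miR-26 and miR-101, which repress the histone methyltransferase EZH2, all had values below 0, with a median of -0.23 and no call. The 5 names linked to p53, including miR-34a-5p at 3539 and 4770 CPM in WT and 5032 and 4958 CPM in R821H, had a median of 0.08. The other 9 families, among them miR-200, miR-148, the HOX cluster miRNAs and the miR-183 cluster, had medians from -0.10 for miR-130, miR-301 and miR-454 to 0.28 for the miR-183 cluster. No name in these lists was called in either fit, and most of these medians changed sign in at least 1 alternative. Without R821H replicate 2 the median of the miR-183 cluster was -0.15 and that of the HOX cluster miRNAs -0.07. Without R821H replicate 1 that of miR-99, miR-100 and miR-125 was -0.13 and that of miR-28, miR-151a and miR-708 was -0.15. The median of miR-130, miR-301 and miR-454 was 0.07 with the depth term and 0.48 without WT replicate 2.

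The identity of the cells was read from markers. The 10 colorectal and epithelial markers were all detected, with a median log2 fold change of -0.02. miR-200b-3p, which keeps epithelial cells from mesenchymal change, was at 1097 and 1510 CPM in WT and 1528 and 1061 CPM in R821H. On the same list, miR-200c-3p was at 18.23 and 43.44 CPM in WT and 42.29 and 25.01 CPM in R821H. miR-141-3p was at 34.94 and 35.11 CPM in WT and 36.15 and 36.92 CPM in R821H. Both lay below the liver marker miR-122-5p in all 4 libraries, and the other listed markers lay above it. Detection alone therefore did not set these markers apart from those of other cell types. Among blood cell markers, 5 of 8 were abundant enough to test, and their summed level was 635 to 790 CPM over the 4 libraries with overlapping groups. The myeloid marker miR-223-3p had 3 to 9 reads per library, and miR-155-5p of activated lymphocytes had 0 reads in 3 libraries and 1 in the shallow R821H library. The blood cell marker miR-142-3p was at 368.4 and 334.0 CPM in WT and 341.1 and 308.5 CPM in R821H, and the red cell miRNA miR-451a, which DICER does not make, at 151.1 and 254.4 CPM in WT and 261.9 and 144.1 CPM in R821H. Neither separated the rescues. miR-142-5p did, at 89.6 and 63.5 CPM in WT and 47.7 and 45.3 CPM in R821H, and was not called (log2 fold change -0.71, SE 0.28, edgeR adjusted p = 0.994, and 0.187 with the term). The muscle, liver and neuron markers summed to 617 to 1040 CPM, most of it miR-9-5p, with the liver marker miR-122-5p at 86.6 and 67.4 CPM in WT and 77.1 and 95.3 CPM in R821H, while miR-124-3p, the defining neuronal miRNA, had at most 2 reads (1.67 before rounding) in any library. The 4 HEK293 markers, all HOX cluster miRNAs, summed to 15921 and 16267 CPM in WT and 18357 and 19000 CPM in R821H. Most of this sum was miR-10a-5p, at 12590 and 12828 CPM in WT and 15006 and 15514 CPM in R821H. miR-10b-5p was also higher in both R821H libraries, with a log2 fold change of 0.22. miR-196a-5p and miR-196b-5p overlapped between the rescues, with log2 fold changes of -0.08 and -0.03, and none of these markers was called.

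**Figure D4:**
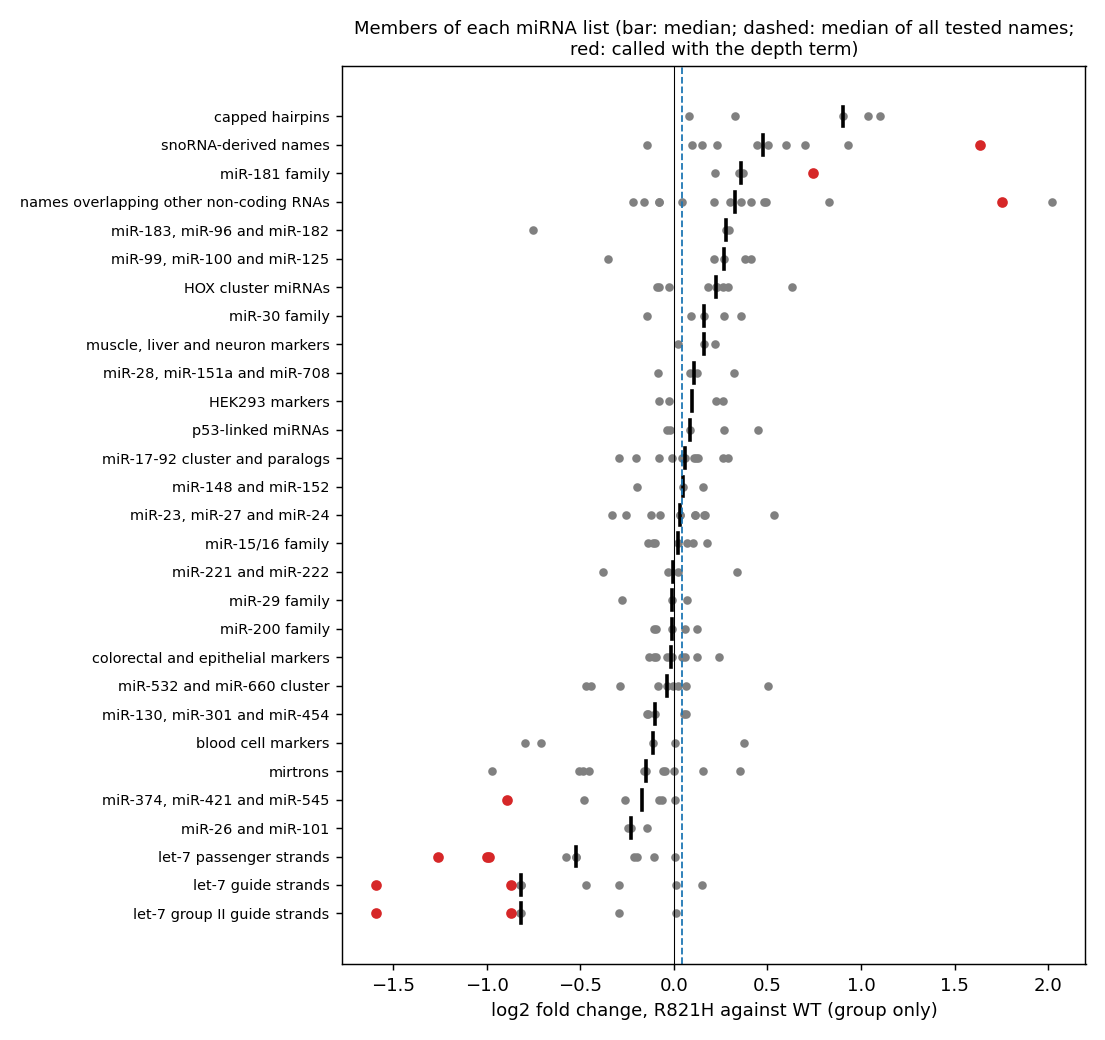
Log2 fold changes of R821H against WT with group alone (horizontal axis) for the tested members of each list with at least 3 tested names, 1 point per name, with the list median as a black bar, the median of all tested names (0.04) as a dashed line and names called with the depth term in red. The let-7 lists have the lowest medians, -0.81 for all guides and -0.52 for passengers, and hold 5 of the 9 distinct names in red.

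The choice between strands of a duplex was tested as log2 of 5p over 3p reads, a ratio that library scaling does not move. Of 174 hairpins, limma called 0 (0%) in R821H against WT, and 5 (2.87%) had an unadjusted p under 0.05. Adding the depth term gave 0 calls again, and 17 hairpins (9.77%) had an unadjusted p under 0.05. In 35 hairpins (20.1%) both R821H libraries lay above both WT libraries, toward 5p, and in 23 (13.2%) both lay below.

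miR-324, known for switching its dominant strand, had a log2 ratio of -0.04 and 0.38 in WT and -0.61 and -0.94 in R821H, on 448 to 2930 reads of the 5p strand per library. Its WT libraries were near balance and its R821H libraries had more 3p reads, a difference of -0.95 (SE 0.41 with group alone and 0.32 with the term; limma adjusted p = 0.84 and 0.119). miR-1307 had 1.67 and 0.81 in WT and 0.26 and 0.45 in R821H, a difference of -0.88 (SE 0.31 with the term, limma adjusted p = 0.129). miR-30b, a 5p-dominated hairpin, had 8.25 and 7.43 in WT and 7.0 and 6.75 in R821H, on only 37 to 171 reads of the 3p strand, a difference of -0.97 (SE 0.30 with the term, limma adjusted p = 0.119).

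miR-188, in the CLCN5 cluster, had the lowest change of those that separated the rescues, -1.58 (SE 0.49 with the term, limma adjusted p = 0.119), with 4 to 28 reads of its 3p strand per library. Its cluster neighbour miR-660 had a difference of 1.16 (SE 0.38 with the term, limma adjusted p = 0.119), with 5 to 32 reads of the 3p strand. miR-1296 had the highest change at 1.53, on 3 to 48 reads of the 3p strand, and neither fit called it. The remaining named ratios were of miR-589 at -1.21, and of miR-6765, miR-556 and miR-5699 at 1.15, 1.25 and 1.33.

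**Figure D5:**
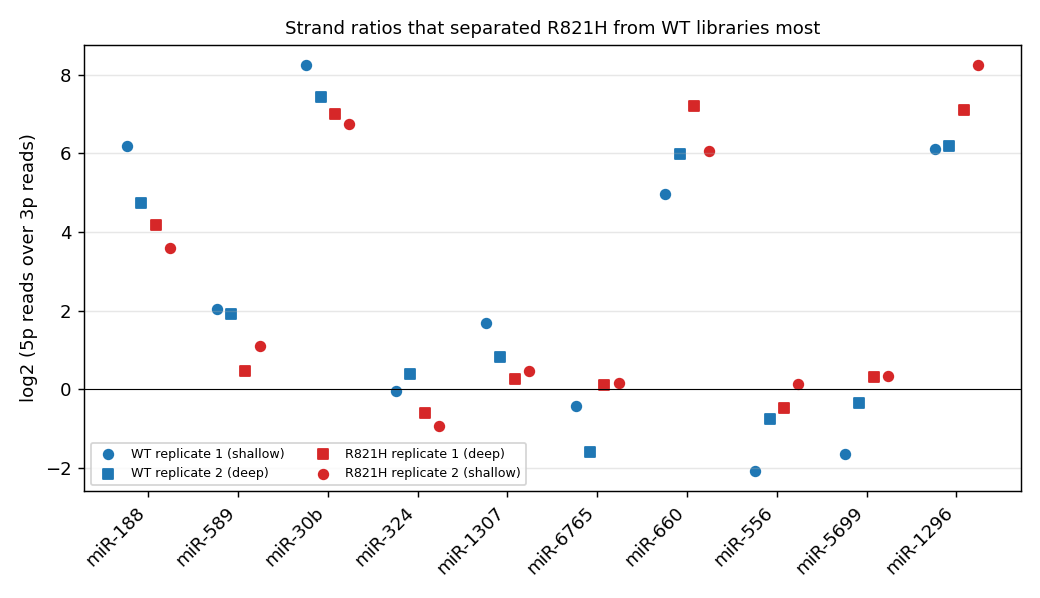
Log2 of 5p over 3p reads (pseudocount of 0.5 on each strand) in the 4 libraries for the 5 lowest and 5 highest changes among hairpins whose R821H and WT libraries did not overlap. The points of miR-324 lie near 0 in WT and below 0 in R821H, and none of the 10 differences passed limma's test.

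The other rescues give a frame for the size of these differences. Against R1003Q, edgeR with group alone called 0 of 625 names (0%) in R821H, where 10 (1.6%) had an unadjusted p under 0.05 and DESeq2 called 0, and the depth term also gave 0 calls (24 by unadjusted p). Against R1855L it called 24 names (3.84%), 22 higher in R821H (3.52%) and 2 lower (0.32%), and the count was 114 (18.2%) with the term. The largest of these was miR-484, with a mean of 1172 CPM in R821H and 34.2 CPM in R1855L, a log2 fold change of 5.19. The other substitutions are compared with the same 2 WT libraries, so values below WT in several rescues share that control. Both R1003Q libraries were shallow, so with group alone the R1003Q values cannot be told apart from depth. Against WT with group alone, miR-98-5p had log2 fold changes of -1.59 in R821H, -2.27 in R1003Q and -1.16 in R1855L. With the depth term its log2 difference of R821H from R1003Q was -0.29 (SE 0.24, edgeR adjusted p = 0.991). miR-185-5p had -1.0, -0.70 and -1.70 against WT with group alone, in the order R821H, R1003Q and R1855L, and miR-374b-5p had -0.89, -0.61 and -1.40. let-7i-3p had -0.99, -0.47 and -0.08, and miR-181a-5p had 0.74, 0.29 and 0.75.

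Sequence features that the comparison did not use showed small differences, apart from the let-7 seed. Over 542 of the 625 tested names (86.7%) matched to RefSeq, the Spearman correlation of GC content with the log2 fold change was 0.108 with group alone and 0.114 with the term, over names that share the 4 libraries. The median log2 fold change was 0.08 for names starting with A, -0.04 with C, 0.02 with G and 0.03 with U. The 48 names under 35% GC had a median of -0.17 and the 106 names of at least 65% GC had -0.06. Between them, the 95 names from 55% to under 65% GC had the highest median, 0.16. Among the seeds held by at least 5 tested names, GAGGUAG of let-7 had a median of -0.81 over 9 names, AGCAGCA of miR-15/16 had -0.01 over 6 and AAAGUGC of miR-17 had 0.11 over 5. By arm, the 268 names ending in 5p had a median of 0.09 and the 243 ending in 3p had -0.05, with 101 and 134 of them below 0.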

How the data were processed

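Small RNA of 8 libraries was examined, with groups and replicate numbers from the titles. The deposited tables hold expected counts, an estimated read count per mature miRNA name made by the authors and neither normalised nor pooled. The submitters' processing notes list hg38, mm10, bedtools, BWA and cutadapt. The miRNA annotation release and the role and version of each tool: not given in the sources used here. The smallest listed value is 1 read, so an absent name was set to 0, and 20 to 33 names in the 4 libraries compared carry fractions, so near-identical members may share reads.

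Counts were rounded and tested with edgeR 4.0.16 (quasi-likelihood, robust) in R 4.3.3, with TMM factors, filterByExpr (625 of 1818 names, holding at least 99.85% of reads), 1 fit to all 8 libraries and Benjamini-Hochberg adjustment over all tested names. Names were called at an adjusted p under 0.05. Each SE was taken from the F statistic, as the size of the log2 fold change over the root of F. The depth term separates 3 deep from 5 shallow libraries, split at the widest gap of log totals. Class ratios used 2 added reads. Strand ratios took hairpins whose strands each had 80 or more reads in total and were tested with limma 3.58.1. DESeq2 1.42.0 was an alternative. The scripts were tested on simulated data. Intervals of counting are not given, and without molecular identifiers the 3-read floor covers counting error only.

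The members, the 30 lists, the depth split and the rule for named miRNAs were chosen with earlier results of these data known. The rule takes the names called with or without the term, the 10 highest and 10 lowest log2 fold changes of at least 50 CPM whose libraries do not overlap, the 10 most abundant in WT, the most abundant and any called member of each list, partner strands, and 5 strand ratios in each direction. miR-4286, let-7 strands and marker values outside it were chosen after their values were seen. miR-320b and miR-484 also lie outside the rule. Alternatives were another scaling, filter, tool, thinning, block, depth covariate or set of libraries. Libraries were not paired by replicate number in the main fits. Of the 16 names called with the term, 1 lower name is counted but not reported here.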

Additional observations from a re-analysis of the deposited data

Results flagged for a closer look

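A total of 4 miRNAs named in the text differed between R821H and R1855L, both set against the same WT libraries, by edgeR's test of the difference between the substitutions with group alone. miR-222-3p was higher in R821H than in R1855L by 2.50 on the log2 scale (adjusted p = 0.00416), with a mean of 100337 CPM in R821H, 79312 in WT and 17776 in R1855L. miR-361-3p was higher in R821H by 1.97 (adjusted p = 0.0121), with both R821H libraries above both WT libraries. For miR-185-3p the log2 difference of R821H from R1855L was -1.77 (adjusted p = 0.0342), with means of 31.3 CPM in R821H, 45.5 in WT and 106 in R1855L. miR-484 was higher in R821H than in R1855L by 5.19 on the log2 scale (adjusted p = 0.00226), with means of 1172 CPM in R821H, 1107 in WT and 34.2 in R1855L.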

How the results depend on the processing

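With group alone, R821H against WT gave 1 call by DESeq2, 16 with the depth term and 4 with log2 library total as a covariate (chosen after seeing the data), and 0 under the other alternatives, including leaving out each library. With the depth term, the 16 calls became 28 without a filter on low counts, 10 with thinned counts, 10 by DESeq2 and 0 with only the compared libraries. Leaving out 1 library gave 8 (without WT replicate 1) to 47 (without R821H replicate 1), with 10 without WT replicate 2, 33 and 27 without R1855L replicates 1 and 2 and 26 without either R1003Q replicate. R821H against R1855L went from 24 calls to 8 with library totals, 38 by DESeq2, 40 without a filter, 114 with the depth term, 6 with only the compared libraries, and 8 to 24 with 1 library left out (8 without R821H replicate 2, 14 without R1855L replicate 1 or either R1003Q replicate). R1003Q and strand ratios gave 0 throughout. The cause was not tested. Over single miRNAs, strand ratios and list medians, 2321 values stayed on their side of the threshold or, for medians, moved within their spread. Uncalled values counted there could change sign. A further 67 lost and 21 gained a call, 14 medians moved and no called value changed sign.

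Same-numbered WT and R821H libraries deviated from their group means in opposite directions (r = -0.685 over 625 names). With 2 libraries a group and depth class crossed over the numbers, this cannot show whether replicate numbers pair the libraries. With the replicate block, R821H against WT gave 0 calls (14 at an unadjusted p under 0.05) and R821H against R1855L 15. In the 4 compared libraries the block gave 0 and the crossed pairing 0, with 3 and 75 at an unadjusted p under 0.05. Depth limits names near 3 reads.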
